A study of Mus musculus with 4 samples.

Results

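The 10 genes described here form the core switch from the G1 phase of the cell cycle to S phase: the D cyclins Ccnd1, Ccnd2 and Ccnd3, the E cyclins Ccne1 and Ccne2, the kinases Cdk4, Cdk6 and Cdk2, the kinase inhibitor Cdkn1b, and Rb1. They were chosen by gene symbol, and all 10 were found among the 26130 genes listed for both cell lines. The series compared the mRNA of Zfp57-/- mouse embryonic stem cells with that of wild-type cells; ZFP57 is a zinc finger protein known to protect the DNA methylation of imprinted regions. There were 4 groups of 1 library each: Zfp57-/- and wild-type cells of E14 (strain 129P2/OlaHsd), and Zfp57-/- and wild-type cells of JB1 (strain JF1/B6). All were cultured without feeder cells in medium with serum and leukemia inhibitory factor. The labels say neither how many clones a genotype stands for nor which part of Zfp57 was deleted.

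D cyclins pair with CDK4 or CDK6, and E cyclins pair with CDK2. Both kinds of kinase phosphorylate the retinoblastoma protein RB1, which otherwise holds E2F factors inactive, and p27, the product of Cdkn1b, restrains cyclin-CDK2 complexes. Mouse embryonic stem cells are known for a short G1 phase, strong cyclin E-CDK2 activity and RB1 that is phosphorylated through most of the cycle.

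Levels are in RPM, read counts scaled by the total of the library, and come from the deposited log2 values, whose unit was inferred from the values themselves. At 1 RPM a gene had between 50.5 and 97.0 reads in a library. Listed genes held 53.7% of the scaling total in the E14 knockout and 53.1% in E14 wild type. In JB1 they held 68.9% in the knockout and 68.6% in wild type. Levels of E14 and JB1 are therefore set side by side only. A log2 difference below is log2((knockout RPM + 1)/(wild-type RPM + 1)), which understates the change of a gene near 1 RPM, and a fold is a ratio of RPM without the added 1. Each fold carries a 95% exact conditional binomial interval on recovered reads, which covers counting error only: there was no replicate within a line, so no p-value is given for a line. Zfp57 itself was at 51.8 RPM in the E14 knockout and 135 RPM in E14 wild type, and at 42.9 RPM in the JB1 knockout and 796 RPM in JB1 wild type. All 8 stem cell markers examined, among them Pou5f1 and Sox2, were above 1 RPM in all 4 libraries. In the knockout 7 of the 8 were lower in E14 (median log2 difference -0.18) and 6 of the 8 in JB1 (median -0.34), and the part of this in the results below was not tested. Nanog was at 137 RPM in the E14 knockout and 228 RPM in E14 wild type, and at 362 RPM in the JB1 knockout and 693 RPM in JB1 wild type. Its log2 difference of -0.73 was the lowest of the 8 in E14. Nanog lies on chromosome 6, where 449 of 546 genes were lower in the E14 knockout. Klf4 was at 143 RPM in the E14 knockout and 156 RPM in E14 wild type, and at 164 RPM in the JB1 knockout and 409.6 RPM in JB1 wild type. Summed over the 8, the level was 3125 RPM in the E14 knockout and 3440 RPM in E14 wild type, while JB1 had 3998 RPM in the knockout and 4960 RPM in wild type. Of 8 fibroblast or feeder markers, 3 (Dcn, Lum and Twist2) had 0 reads in both E14 libraries and 1 (Dcn) in both JB1 libraries. Summed over the 8, the level was 2.15 RPM in the E14 knockout, 1.61 RPM in E14 wild type, 13.5 RPM in the JB1 knockout and 7.62 RPM in JB1 wild type. In bulk RNA, a change in the share of cells in a state or phase and a change of RNA per cell cannot be told apart.

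Promoters of 2 cyclins and of Cdk2 are shown first. RefSeq windows from 250 bases before to 50 bases after a transcription start (GRCm38.p6) were at hand for 6 of the 10 genes, Ccnd3 with 2 start sites 88416 bases apart. Below are the 150 bases before each start of Ccnd3 and Ccne1, the cyclins at least 2-fold higher in the JB1 knockout. Those of Cdk2 are also shown, the only one of the 6 with a match to the E2F-type motifs searched. Capitals mark TGCCGC, the hexamer that ZFP57 is known to recognize when it is methylated, and the E2F-type motifs TTTCCCGC, TTTGGCGC, TTTCGCGC and TTTGGGGC, searched on both strands.
Ccnd3 upstream start (chr17:47504901-47505050, plus strand): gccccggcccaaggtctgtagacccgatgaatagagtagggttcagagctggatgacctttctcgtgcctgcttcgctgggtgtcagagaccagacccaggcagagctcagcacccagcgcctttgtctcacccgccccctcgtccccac
Ccnd3 downstream start (chr17:47593317-47593466, plus strand): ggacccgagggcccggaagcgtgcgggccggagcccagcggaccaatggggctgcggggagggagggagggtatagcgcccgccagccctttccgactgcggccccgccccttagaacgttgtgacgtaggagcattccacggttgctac
Ccne1 (chr7:38107491-38107640, minus strand): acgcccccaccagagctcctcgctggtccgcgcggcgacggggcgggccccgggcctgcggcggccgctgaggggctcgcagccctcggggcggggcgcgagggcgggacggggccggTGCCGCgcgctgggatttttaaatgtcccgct
Cdk2 (chr10:128705052-128705201, minus strand): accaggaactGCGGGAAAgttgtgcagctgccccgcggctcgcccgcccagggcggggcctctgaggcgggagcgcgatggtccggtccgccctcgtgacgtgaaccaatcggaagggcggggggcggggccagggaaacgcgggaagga
In the Ccne1 window TGCCGC lay on the gene's strand, with its first base 32 bases before the start. In the Cdk2 window TTTCCCGC lay on the other strand, beginning 140 bases before the start, and a TGCCGC lay on the other strand 41 bases into the transcript, outside the stretch shown. No match overlapped another, and neither Ccnd3 window nor those of Cdk4, Cdk6 and Cdkn1b held a match. Of all 32851 windows in the table, 3.04% held an E2F-type motif and 11.6% held TGCCGC. The 7 windows of the 6 genes held between 15 and 41 CpG dinucleotides, against a median of 7 over all windows. Only the E2F-type sequences listed were searched, so a window without a match can still hold another E2F site. A match describes these letters only, and binding and methylation were not measured.

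In both lines the cyclins other than Ccnd2 were higher in the knockout library, whereas Ccnd2, Cdkn1b and Rb1 were lower. The kinases differed little. In E14, Ccnd1 (1.07-fold, with an interval that included no change) and Ccne1 (1.16-fold) were also close to Cdk2 (1.15-fold) and Cdk4 (1.14-fold). Ccnd3 and Ccne1 were at least 2-fold higher in JB1 on the log2(RPM + 1) scale, 2 of the 10 genes, where 2.5% of 13132 measured genes were. None of the 10 was at least 2-fold lower in JB1, where 1.58% of measured genes were. In E14 none of the 10 passed 2-fold in either direction, where 0.953% of 12276 measured genes were higher and 0.269% lower by that much. At 1.5-fold, none of the 10 was higher in E14 (3.81% of measured genes) and Ccnd2 and Rb1 were lower (2.27%). In JB1, Ccnd3, Ccne1 and Ccne2 were at least 1.5-fold higher (9.91% of measured genes) and Rb1 and Cdkn1b were lower (6.52%). The median log2 difference over the 10 genes was 0.14 in E14 and 0.05 in JB1, beside 0.02 and 0.01 over all measured genes. Of the 10, 7 had the same sign in both lines, 4 higher and 3 lower, compared with 58.0% of 11890 genes measured in both.

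**Figure D1:**
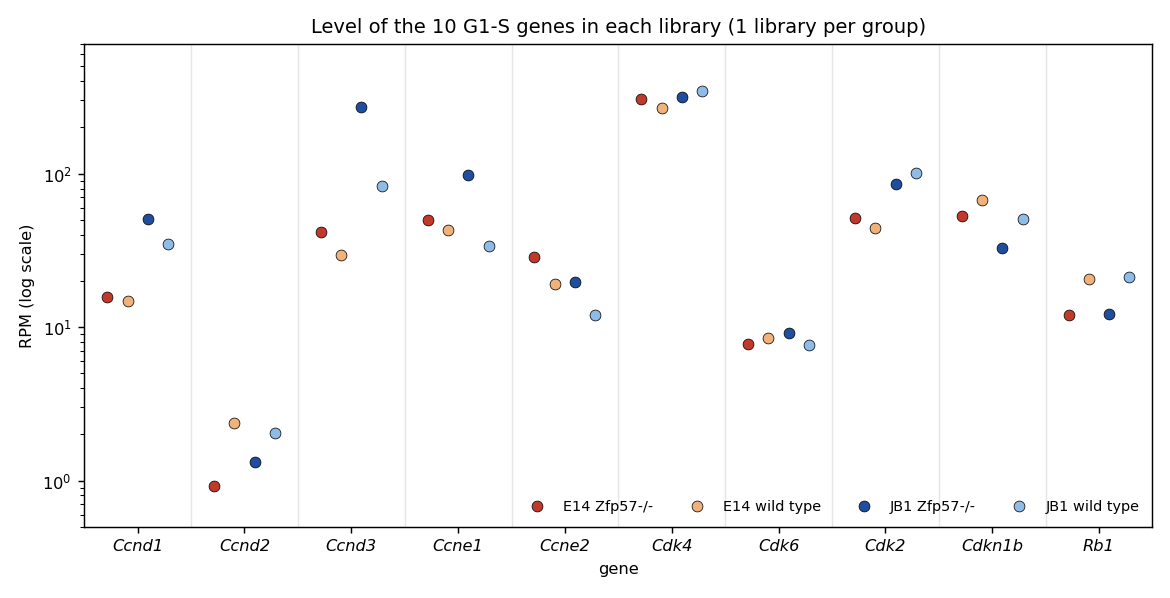
Level of each gene in RPM (log axis) in the 4 libraries, 1 point per library. Ccnd3 stood at 273 RPM in the JB1 knockout, above its other 3 libraries, and Rb1 was near 12 RPM in both knockout libraries and above 20 RPM in both wild-type libraries.

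Ccnd3, on chromosome 17 (47642000 to 47736632, plus strand, mm9), differed most of the 10 in JB1. It was at 41.7 RPM in the E14 knockout and 29.3 RPM in E14 wild type, and at 273 RPM in the JB1 knockout and 82.8 RPM in JB1 wild type. Each knockout library was above the wild type of its line, and both JB1 libraries were above both E14 libraries, although the tables of the lines were normalized separately. The fold was 1.42 in E14 (1.34 to 1.52) and 3.29 in JB1 (3.20 to 3.39). Among 13132 genes measured in JB1, 51 had a higher log2 difference than the 1.71 of Ccnd3. In E14 its log2 difference of 0.50 ranked 703 of 12276.

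Ccnd1, the D cyclin best known as a target of growth factor signalling (chromosome 7, 152115836 to 152125774), showed a smaller difference of the same sign. It was at 15.8 RPM in the E14 knockout and 14.8 RPM in E14 wild type, and at 50.7 RPM in the JB1 knockout and 34.7 RPM in JB1 wild type. The JB1 fold was 1.46 (1.39 to 1.53). In E14 the interval of 0.97 to 1.17 around a fold of 1.07 included no change.

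Ccnd2 (chromosome 6, 127075797 to 127101066) was near the lower end of the measured range and went the other way. It was at 0.919 RPM in the E14 knockout and 2.38 RPM in E14 wild type, from 65 and 120 reads, and at 1.33 RPM in the JB1 knockout and 2.05 RPM in JB1 wild type, from 129 and 142 reads. Both knockout libraries were below both wild-type libraries. The gene was 2.59-fold lower in E14 (1.896 to 3.552) and 1.54-fold lower in JB1 (1.21 to 1.97). Because of its low level, the E14 log2 difference of -0.82 became -0.32 with a pseudocount of 5 and -1.28 with one of 0.1.

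Per length, taking RPM per kb of the longest GENCODE M21 protein-coding transcript, Ccnd3 made up most of the D cyclin mRNA in every library. Its share was 81.9% in the E14 knockout and 76.2% in E14 wild type, and 90.4% in the JB1 knockout and 80.3% in JB1 wild type. Ccnd1 held 17.5% and 21.7% in E14 knockout and wild type, and 9.48% and 19.02% in JB1 knockout and wild type. The 3 D cyclins summed to 24.1 RPM per kb in the E14 knockout and 18.2 in E14 wild type, and to 143 RPM per kb in the JB1 knockout and 48.8 in JB1 wild type, 1.32 and 2.93 times the wild-type sums.

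Ccne1 (chromosome 7, 38883003 to 38892553, minus strand) was the other cyclin at least 2-fold higher in the JB1 knockout. It was at 49.9 RPM in the E14 knockout and 43.0 RPM in E14 wild type, and at 97.7 RPM in the JB1 knockout and 33.6 RPM in JB1 wild type. The JB1 knockout was above the other 3 libraries, which lay between 33.6 and 49.9 RPM, although the tables of the lines were normalized separately. The fold was 1.16 in E14 (1.10 to 1.23) and 2.91 in JB1 (2.78 to 3.04), and 81 genes had a higher log2 difference in JB1.

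Ccne2 (chromosome 4, 11118498 to 11131926), the paralog of Ccne1, differed by similar amounts in the lines. It was at 28.5 RPM in the E14 knockout and 19.1 RPM in E14 wild type, and at 19.6 RPM in the JB1 knockout and 12.0 RPM in JB1 wild type. Each knockout library was above its own wild type. In RPM the JB1 knockout was level with E14 wild type, across tables normalized separately. The fold was 1.496 in E14 (1.39 to 1.62) and 1.63 in JB1 (1.502 to 1.771). Ccne1 held the larger part of E cyclin mRNA per kb in all 4 libraries, 72.4% in the E14 knockout and 77.2% in E14 wild type, and 88.2% in the JB1 knockout and 80.8% in JB1 wild type.

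**Figure D2:**
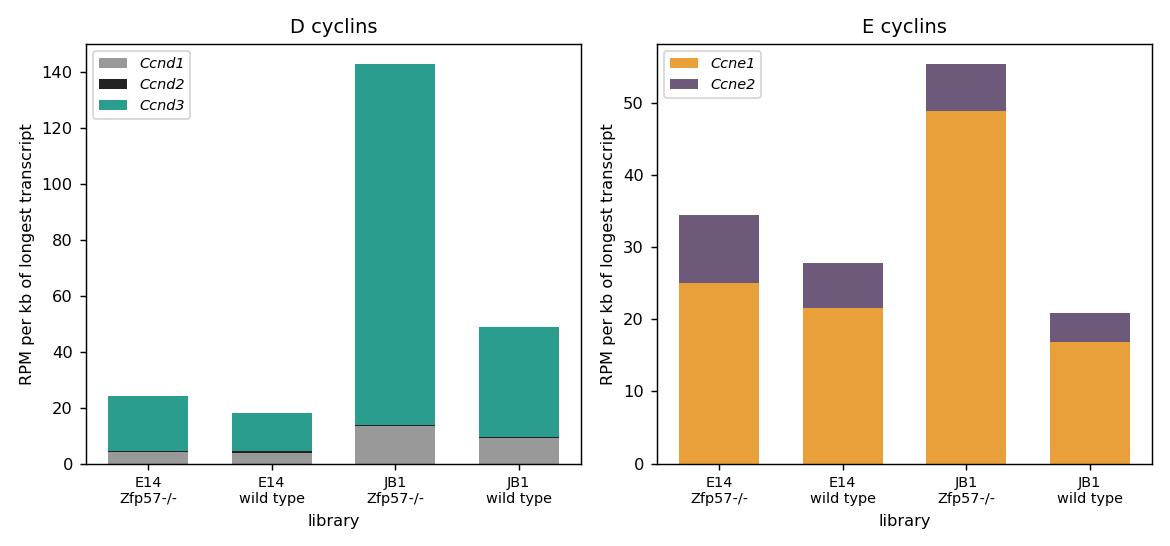
Stacked bars of the D cyclins (left) and E cyclins (right) in RPM per kb of longest transcript, 1 bar per library. The JB1 knockout bar is the tallest in both panels, at 143 RPM per kb for the D cyclins and 55.4 for the E cyclins, and most of each bar is Ccnd3 or Ccne1.

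The kinases that these cyclins activate were nearly level. Cdk4 (chromosome 10, 126500590 to 126504976) was at 306 RPM in the E14 knockout and 269 RPM in E14 wild type, and at 318 RPM in the JB1 knockout and 346 RPM in JB1 wild type. It was 1.14-fold higher in E14 (1.11 to 1.16) and 1.09-fold lower in JB1 (1.07 to 1.11). Cdk2 (chromosome 10, 128134995 to 128142107) was at 51.2 RPM in the E14 knockout and 44.4 RPM in E14 wild type, and at 86.0 RPM in the JB1 knockout and 100.3 RPM in JB1 wild type. It too was higher in E14, by 1.15-fold (1.09 to 1.22), and lower in JB1, by 1.17-fold (1.13 to 1.20). For both kinases the sign of the difference was opposite in the lines, and for Cdk2 both JB1 libraries were above both E14 libraries.

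Cdk6 (chromosome 5, 3343893 to 3523218), the alternative partner of D cyclins, was at 7.81 RPM in the E14 knockout and 8.56 RPM in E14 wild type, and at 9.13 RPM in the JB1 knockout and 7.69 RPM in JB1 wild type. The E14 fold of 0.91 had an interval that included no change (0.80 to 1.04), and the JB1 fold was 1.19 (1.07 to 1.33). Per kb of longest transcript, Cdk4 made up 99.5% of the pair in the E14 knockout and 99.4% in E14 wild type, and 99.5% in the JB1 knockout and 99.6% in JB1 wild type.

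Cdkn1b, which encodes p27 (chromosome 6, 134870419 to 134875531, plus strand), was lower in both knockout libraries. It was at 53.0 RPM in the E14 knockout and 67.8 RPM in E14 wild type, and at 32.7 RPM in the JB1 knockout and 50.8 RPM in JB1 wild type. The E14 knockout was above JB1 wild type, so the genotypes overlapped across lines but not within one. The gene was 1.28-fold lower in E14 (1.22 to 1.34) and 1.55-fold lower in JB1 (1.48 to 1.63).

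Rb1 (chromosome 14, 73583480 to 73725629, minus strand) was the member most alike in the lines. It was at 12.1 RPM in the E14 knockout and 20.6 RPM in E14 wild type, and at 12.2 RPM in the JB1 knockout and 21.3 RPM in JB1 wild type. Both knockout libraries were below both wild-type libraries. Rb1 was 1.71-fold lower in E14 (1.56 to 1.87) and 1.74-fold lower in JB1 (1.61 to 1.88). Counted from the lowest log2 difference, it ranked 134 of 12276 genes in E14 and 456 of 13132 in JB1.

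Several members share sequence with a neighbour on the opposite strand, and the counting of strand is not given in the sources used here, so such reads are uncertain. Rb1 overlaps Rcbtb2 by 24171 bases and spans Lpar6, a receptor gene inside it. Lpar6 was at 1.12 RPM in the E14 knockout and 2.02 RPM in E14 wild type, and at 8.51 RPM in the JB1 knockout and 3.70 RPM in JB1 wild type, the opposite sign to Rb1 in JB1. Ccne2 overlaps Ints8 by 5622 bases, Ccnd1 overlaps Oraov1 by 818, Cdk4 overlaps Tspan31 by 604 and Ccnd3 overlaps Bysl by 353. Bysl was at 42.0 RPM in the E14 knockout and 39.2 RPM in E14 wild type, and at 53.0 RPM in the JB1 knockout and 51.1 RPM in JB1 wild type.

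The difference shared by the lines was tested with limma over 12644 genes averaging 1 RPM or more, in a model of cell line and genotype. The lines are the sole replication of the genotype, with 1 residual degree of freedom per gene. Limma drew each gene's variance toward that of other genes, with a weight of 5.28 prior degrees of freedom. An SE is therefore not the gene's own spread alone. No gene passed a Benjamini-Hochberg adjusted p of 0.05 (0% of genes, and 0 of the 10), and limma's lowest adjusted p was 0.62 over all genes. At an unadjusted limma p under 0.05 there were 1005 genes (7.95%), and 6 of the 10: Rb1, Ccnd3, Ccne2, Cdkn1b, Ccne1 and Ccnd2. Rb1 had a shared log2 difference of -0.74 ± 0.17 (SE; limma, adjusted p = 0.62), and its p ranked 54 of 12644. It was lower in both lines. Ccnd3 had 1.10 ± 0.28 and Ccne2 had 0.61 ± 0.16 (SE; limma, adjusted p = 0.62 for both), with p at ranks 117 and 145. Each was higher in both lines. The limma p of Cdkn1b, Ccne1 and Ccnd2 lay between 0.021 and 0.043, with adjusted p of 0.62 to 0.63. Ccnd1, Cdk6, Cdk4 and Cdk2 had limma p from 0.13 to 0.96. Over 7 alternative fits the adjusted p of the 10 genes ranged from 0.49 to 1. The 10 genes were proposed with results of these data known, so the 6 are a description and no independent support. Whether a difference itself differed between the lines was not tested, since an interaction would leave no residual degree of freedom.

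**Figure D3:**
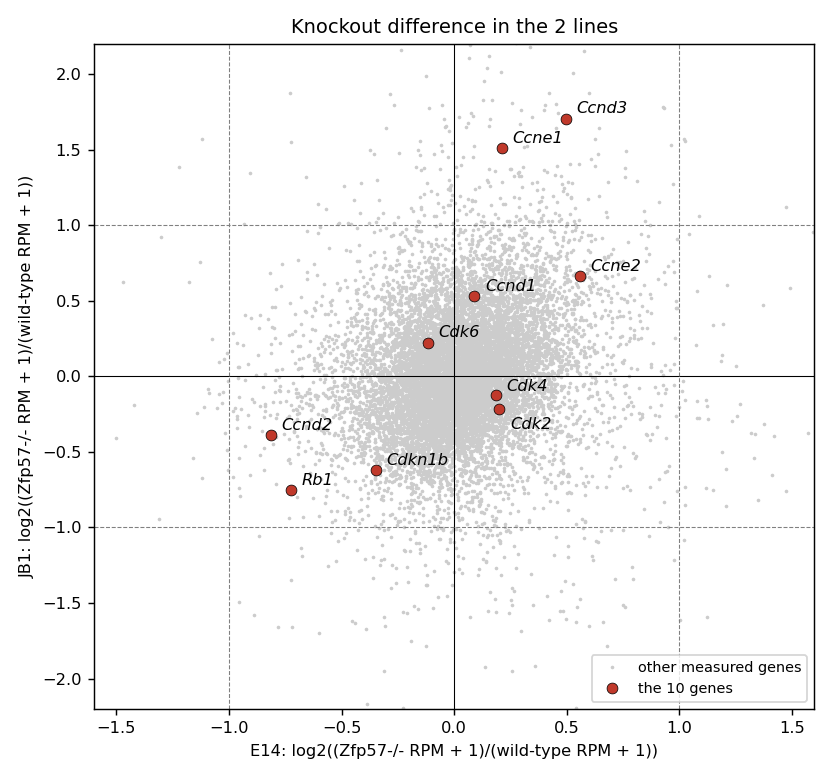
Log2 difference, Zfp57-/- minus wild type, in E14 (horizontal) and JB1 (vertical), with the 10 genes in red, other measured genes in grey and 2-fold as dashed lines; genes beyond the axes are not drawn. Ccnd3 and Ccne1 lie above the 2-fold line of JB1 at 1.71 and 1.51, and Rb1, Ccnd2 and Cdkn1b lie at the lower left.

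The 3 members that were lower in both lines lie on chromosomes 6 and 14, where many other genes were also lower in the E14 knockout. On chromosome 14 between 41 and 77 Mb, a block known from earlier results of these data, 215 of the 230 other genes at 1 RPM or more were lower in the E14 knockout, with a median log2 difference of -0.63. Rb1, at -0.72 in E14, had 79 of these genes below it and 151 above. In JB1 the same block was balanced, with 130 of 259 genes lower and a median of -0.00, and Rb1 at -0.75 had 7 genes below it and 252 above. Within 5 Mb of Rb1, 45 of 51 genes were lower in E14 (median -0.58) and 27 of 56 in JB1 (median 0.07). Within 2 Mb the JB1 median was 0.34, with 4 of 11 genes lower. Thus Rb1 lay within the middle range of its surroundings in E14 and near their lower end in JB1.

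The nearest genes averaging 5 RPM or more on either side of Rb1 were all lower in the E14 knockout. In the JB1 knockout Rcbtb2 was higher, and Fndc3a, Itm2b and Med4 were lower by less than in E14. Fndc3a was at 38.2 RPM in the E14 knockout and 75.5 RPM in E14 wild type, and at 88.0 RPM in the JB1 knockout and 106 RPM in JB1 wild type. Med4, a subunit of the Mediator complex, was at 15.2 RPM in the E14 knockout and 24.0 RPM in E14 wild type, and at 28.5 RPM in the JB1 knockout and 29.4 RPM in JB1 wild type. The log2 differences of Itm2b were -0.70 in E14 and -0.28 in JB1, and those of Rcbtb2 were -0.32 and 0.38.

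On chromosome 6, 449 of 546 other genes were lower in the E14 knockout (median -0.28) and 256 of 591 in the JB1 knockout (median 0.06). Cdkn1b, at -0.35 in E14, had 217 of these genes below it and 329 above. At -0.62 in JB1 it had 25 below and 566 above. Ccnd2, at -0.82 in E14, had 6 below and 540 above, and at -0.39 in JB1 it had 65 below and 526 above. Within 5 Mb of Ccnd2, all 65 genes were above it in E14 (median -0.24) and 62 of 73 in JB1 (median 0.01). Within 5 Mb of Cdkn1b, 14 of 24 genes were above it in E14 (median -0.30) and 25 of 26 in JB1 (median 0.13). Beside Cdkn1b, Gpr19 and Ddx47 had log2 differences of -0.30 and -0.36 in E14 and of 0.04 and 0.32 in JB1. Crebl2 had -0.69 in E14 and -0.46 in JB1, and Gprc5a had -0.58 and 0.24. Beside Ccnd2, 9630033F20Rik had -0.59 and -0.26, D6Wsu163e -0.11 and -0.27, Parp11 -0.24 and -0.34, and Tspan9 -0.46 and 0.34, in E14 and JB1.

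The surroundings of Ccnd3, Ccne1 and Ccne2, which were higher in both lines, varied. Within 5 Mb of Ccnd3 the median log2 difference was 0.07 in E14 over 76 genes and -0.08 in JB1 over 81 genes, and in JB1 all 81 were below Ccnd3. Around Ccne1 the medians were 0.03 over 28 genes and 0.21 over 32, with 31 of the 32 below Ccne1 in JB1. In JB1, 21 of those 32 genes were higher, and at 5 RPM or more 16 of 23 were higher with a median of 0.35. Around Ccne2 they were -0.16 over 29 genes and -0.08 over 30, with 28 of 29 below Ccne2 in E14 and all 30 in JB1.

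**Figure D4:**
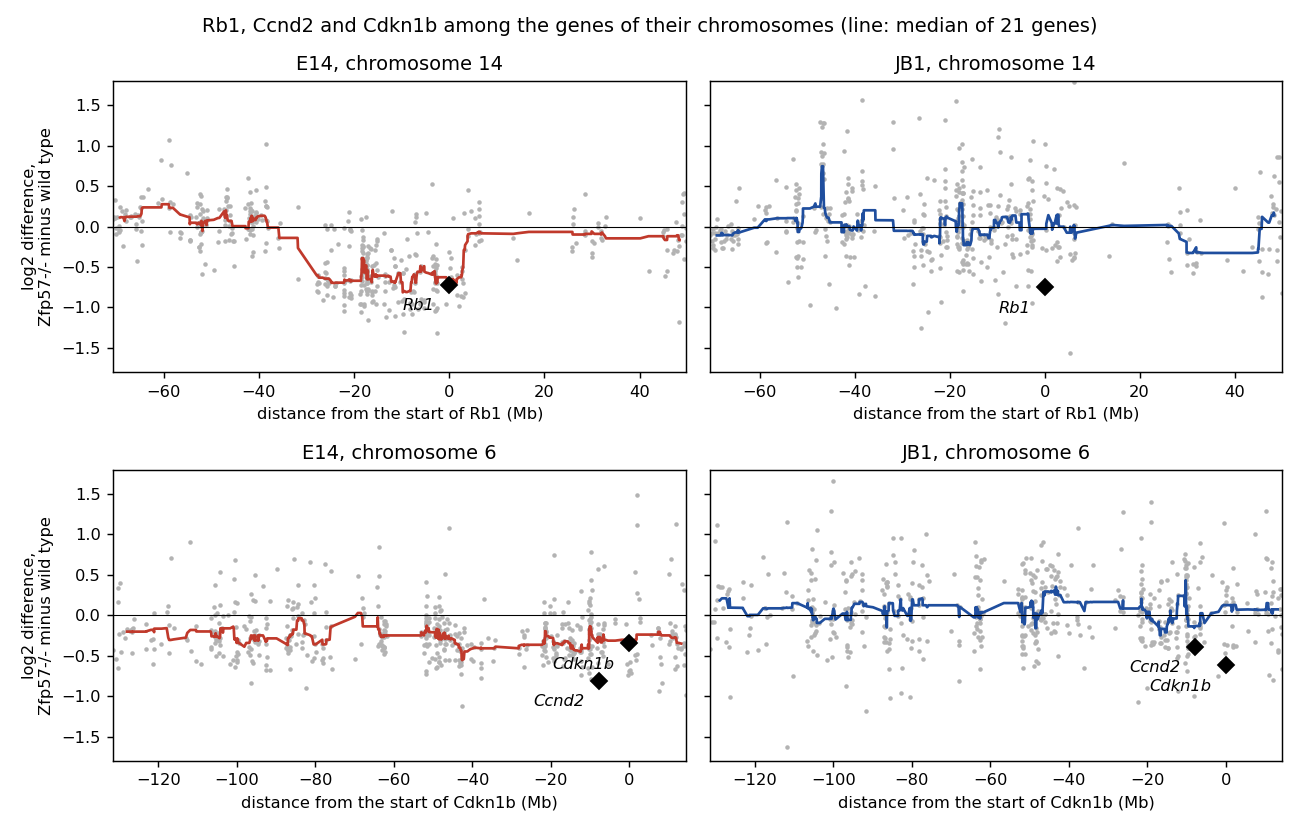
Log2 difference, Zfp57-/- minus wild type, of the measured genes of chromosome 14 (top, by distance in Mb from the start of Rb1) and chromosome 6 (bottom, from the start of Cdkn1b), in E14 (left) and JB1 (right); the line is the median of 21 neighbouring genes, and genes beyond the axes are not drawn. In E14 Rb1 at -0.72 and Cdkn1b at -0.35 lie near the line, and in JB1 at -0.75 and -0.62 they lie below it. Ccnd2, also marked in the bottom panels, is at -0.82 in E14 and -0.39 in JB1, where the medians within 5 Mb are -0.24 and 0.01.

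Among 9625 other genes averaging 5 RPM or more, those nearest to Ccnd3 in the plane of the 2 log2 differences were Steap3, Pgk1 and Gm5506, at distances of 0.05, 0.07 and 0.11. Pgk1, a glycolytic kinase, was at 314 RPM in the E14 knockout and 230 RPM in E14 wild type, and at 396 RPM in the JB1 knockout and 126 RPM in JB1 wild type. Among the genes nearest to Ccne1 were Pfkl, the liver-type phosphofructokinase of glycolysis, and Cpne5, at distances of 0.10 and 0.12. Pfkl was at 46.7 RPM in the E14 knockout and 37.5 RPM in E14 wild type, and at 133 RPM in the JB1 knockout and 45.9 RPM in JB1 wild type. This likeness rests on 2 differences from 4 libraries.

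Around the 10 genes, 8 lists of other G1-S and cell cycle genes were examined. For the counts of higher and lower genes below, 53.5% of all measured genes were higher in the E14 knockout and 51.5% in the JB1 knockout. No gene of the lists had a limma adjusted p under 0.05, and 6 of 98 genes tested had an unadjusted limma p under 0.05 (among them Chaf1b, Rrm1, Tk1, Cdc37 and Mycn), compared with 7.95% of all genes. No gene of the lists was at least 2-fold different in E14 on the log2(RPM + 1) scale, and Tk1 alone was in JB1. Of all measured genes, 0.953% were higher and 0.269% lower by that much in E14, and 2.5% and 1.58% in JB1. Other kinase inhibitors had opposite signs in the lines. All 4 measured were higher in E14 (median 0.53) and 3 of 4 were lower in JB1 (median -0.33). Cdkn1a, which encodes p21, was at 36.9 RPM in the E14 knockout and 25.02 RPM in E14 wild type, and at 31.6 RPM in the JB1 knockout and 63.2 RPM in JB1 wild type. Cdkn1c, the imprinted gene for p57, was at 12.5 RPM in the E14 knockout and 8.22 RPM in E14 wild type, and at 3.26 RPM in the JB1 knockout and 4.15 RPM in JB1 wild type. Cdkn2d, an INK4-type inhibitor of CDK4 and CDK6, had log2 differences of 0.05 in E14 and 0.27 in JB1.

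The relatives of Rb1 differed less than Rb1. Rbl1, for p107, was at 16.6 RPM in the E14 knockout and 15.8 RPM in E14 wild type, and at 19.5 RPM in the JB1 knockout and 23.9 RPM in JB1 wild type. Rbl2, for p130, was at 7.96 RPM in the E14 knockout and 9.81 RPM in E14 wild type, and at 8.02 RPM in the JB1 knockout and 9.97 RPM in JB1 wild type. Rbl2 was thus lower in both knockout libraries, by log2 differences of -0.27 and -0.28.

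E2F and DP factors, some of which RB1 and its relatives bind, were split evenly, with 5 of 10 higher in each line. Medians were -0.01 in E14 and 0.10 in JB1. E2f8, an atypical E2F that represses transcription, was at 56.3 RPM in the JB1 knockout and 30.4 RPM in JB1 wild type, the highest log2 difference of the list in JB1 (0.87), and had -0.06 in E14. E2f6, a repressor that does not bind RB1, was lowest in both lines, at -0.19 in E14 and -0.67 in JB1. Tfdp2, a DP partner, was highest in E14, at 0.28.

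E2F targets of S phase were higher in the E14 knockout for 26 of 30 genes (median 0.14) and in the JB1 knockout for 19 of 30 (median 0.12). With libraries scaled by trimmed means of M values, the medians were 0.10 in E14 and 0.07 in JB1. Their summed level was 4213 RPM in the E14 knockout and 3908 RPM in E14 wild type, while JB1 had 4748 RPM in the knockout and 4274 RPM in wild type. Tk1, which phosphorylates thymidine for DNA synthesis, was at 11.4 RPM in the E14 knockout and 8.58 RPM in E14 wild type, and at 29.5 RPM in the JB1 knockout and 14.1 RPM in JB1 wild type. Chaf1b, a subunit of the chromatin assembly factor that loads histones on new DNA, was at 38.4 RPM in the E14 knockout and 26.4 RPM in E14 wild type, and at 54.2 RPM in the JB1 knockout and 37.9 RPM in JB1 wild type. The lowest of the list were the helicase subunit Mcm2 in E14 (-0.10), which lies on chromosome 6, and the DNA polymerase alpha subunit Pola1 in JB1 (-0.27).

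Of the G2-M genes, 15 of 22 were lower in E14 (median -0.07) and 18 of 22 were higher in JB1 (median 0.21). Plk1, a mitotic kinase, was highest of the list in both lines, at 30.1 RPM in the E14 knockout and 26.98 RPM in E14 wild type, and at 82.5 RPM in the JB1 knockout and 49.0 RPM in JB1 wild type. The lowest were the checkpoint kinase Bub1b in E14 (-0.28) and the kinetochore gene Cenpf in JB1 (-0.52).

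Genes of G1-S protein turnover were lower for 11 of 14 in E14 (median -0.06) and higher for 10 of 15 in JB1 (median 0.24). Cul1, the scaffold of SCF ubiquitin ligases, was lowest in E14 at 80.8 RPM in the knockout and 108 RPM in wild type, and it too lies on chromosome 6. Fbxo31, an F-box gene, was highest in E14 (0.20). In JB1, Usp28, a deubiquitinase that opposes FBXW7, was highest (0.59), and Fbxw7, which marks cyclin E for degradation, was lowest (-0.36).

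Kinases and phosphatases that activate or brake CDKs had medians of 0.26 in E14 and 0.01 in JB1, with 6 and 4 of 7 higher. Pkmyt1, an inhibitory kinase, was highest in E14 (0.41) and Wee1, another, was lowest (-0.14). Cdc37, a chaperone partner of CDK4, was highest in JB1 (0.52) and the CDK-activating kinase gene Cdk7 was lowest (-0.38). Upstream inducers had medians of -0.01 in E14 and 0.03 in JB1. Myc was at 2.70 RPM in the E14 knockout and 3.31 RPM in E14 wild type, and at 23.7 RPM in the JB1 knockout and 12.0 RPM in JB1 wild type. Mycn was lower in both lines, with log2 differences of -0.33 in E14, the lowest of the list there, and -0.55 in JB1. Jun had opposite signs, at 0.63 in E14 and -0.73 in JB1.

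**Figure D5:**
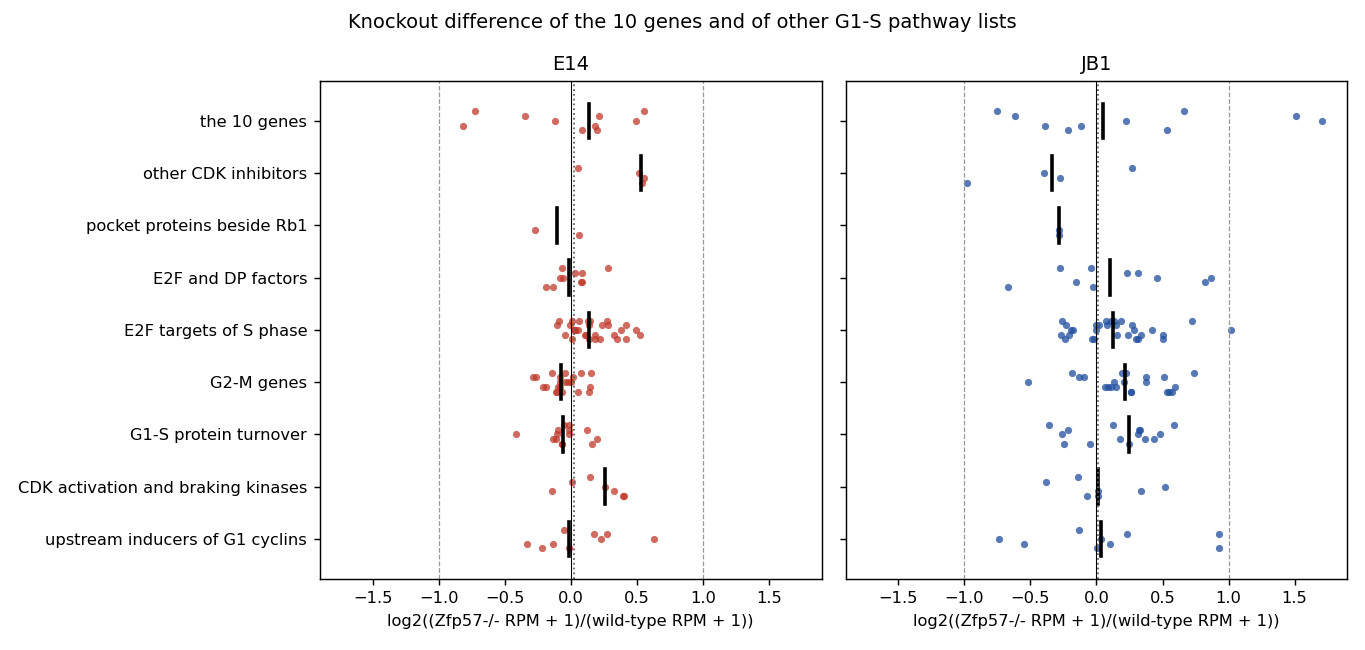
Log2 difference, Zfp57-/- minus wild type, of each measured gene of the 10 and of the 8 lists in E14 (left) and JB1 (right), 1 point per gene; black bars are medians, the dotted line is the median of all measured genes and dashed lines are 2-fold. The 10 genes spread from -0.82 to 0.56 in E14 and from -0.75 to 1.71 in JB1, and the G2-M median is -0.07 in E14 and 0.21 in JB1.

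Markers of other cell types moved with the lines as follows, and their part in the results was not tested; in neither line was any marker of these 4 lists at 0 in both libraries. Primitive endoderm markers summed to 133 RPM in the E14 knockout and 126 RPM in E14 wild type, and to 146 RPM in the JB1 knockout and 120 RPM in JB1 wild type, most of it Lama1. Of the measured markers of this list, 4 of 5 were lower in the E14 knockout (median log2 difference -0.25) and 6 of 7 were higher in the JB1 knockout (median 0.30). Lama1 was the 1 that was higher in E14, and Gata4, on chromosome 14, was the 1 that was lower in JB1. Gata4 had the lowest log2 difference of the list in both lines, at -0.58 in E14 and -0.84 in JB1. Trophoblast markers summed over 7 genes to 10.3 RPM in the E14 knockout and 7.31 RPM in E14 wild type, and to 24.7 RPM in the JB1 knockout and 16.1 RPM in JB1 wild type. Mesoderm markers summed to 2.84 RPM in the E14 knockout and 2.69 RPM in E14 wild type, and to 3.77 RPM in the JB1 knockout and 2.85 RPM in JB1 wild type. Neuroectoderm markers summed over 6 genes to 55.7 RPM in the E14 knockout and 43.3 RPM in E14 wild type, and to 24.8 RPM in the JB1 knockout and 22.2 RPM in JB1 wild type. Most of this was Tubb3, and of 3 measured markers 2 were higher and 1 lower in each line.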

How the data were processed

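mRNA libraries were made with a stranded Illumina kit, per the labels' protocols. The submitters' processing notes name TopHat2 2.0.8b, CASAVA 1.8.2, cutadapt and build mm9. How genes were counted, on which annotation and with what use of strand is not given in the sources used here. Deposited by the authors was 1 table per line with log2 values for 26130 genes; the headers name no unit, and log2 RPM was inferred from the values, genes without reads standing at 0.9 read. With the lowest value of a library taken as 0.9 read, the linear value was whole for 100% of genes above the lowest value (relative tolerance 0.0001), so whole reads could be recovered: 37965626 reads in listed genes in the E14 knockout, 26801865 in E14 wild type, 66849394 in the JB1 knockout and 47458221 in JB1 wild type. Intervals on these reads cover counting error only.

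Differences were computed with a pseudocount of 1 RPM in genes reaching 1 RPM in one or both libraries of a line (Python 3.11.15). The shared difference was fitted with limma 3.58.1 in R 4.3.3 (mean-variance trend), and the fit was tested on simulated data. The values are log2, so the count model foreseen for count tables was not run. p-values measure only the spread between these libraries, and limma draws each gene's variance toward that of other genes. Pathway lists and members were chosen with earlier results of these data known; all 10 members are named, and from each list the genes with the highest and lowest difference in a line, while other list genes (such as Rrm1) were named after their values were seen. Coordinates are those of the tables; the reference (GRCm38) served for transcript lengths and promoters only. Tfap2c, Sox1 and Map2 were not analysed here, some genes are not reported here, and protein sequences were not used. Alternatives were other pseudocounts, filters, scalings, windows and fits, with limma-voom on recovered reads added after seeing the data.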

Additional observations from a re-analysis of the deposited data

Results flagged for a closer look

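Cdk2 and Cdk4 had opposite signs in the lines, each with a counting interval that did not include equality. The log2 difference, knockout minus wild type, was 0.20 in E14 and -0.22 in JB1 for Cdk2, and 0.18 in E14 and -0.12 in JB1 for Cdk4. The difference between the lines was not tested, since there was 1 library per line and genotype. Both genes lie on chromosome 10, where the median of the other measured genes within 5 Mb was 0.10 in E14 and -0.13 in JB1 around Cdk2, and 0.08 in E14 and -0.13 in JB1 around Cdk4.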

How the results depend on the processing

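The fit paired knockout and wild type within a cell line. Without the cell line term (no replicate block), limma had 16 genes and 0 of the 10 at an unadjusted p under 0.05, and 0 genes past the adjusted threshold. Without a filter on low values, 2 of the 10 (Rb1 and Ccne2) had an unadjusted limma p under 0.05. There the prior degrees of freedom were 0.74, and limma p was 0.16 for Ccnd3 and 0.24 for Ccne1. In none of the 7 alternative limma fits did any gene pass the adjusted threshold, and at an unadjusted p under 0.05 limma-voom, added later, counted 1250 genes. With a pseudocount of 5, the genes past 2-fold numbered 44 higher and 6 lower in E14, and 111 higher and 83 lower in JB1. With a pseudocount of 0.1 these counts were 268 and 77 in E14, 1 of the 10 (Ccnd2) among the lower, and 656 and 360 in JB1. None of 80 single-line differences of the 10 genes changed sign under another pseudocount, scaling or centring. Taking JB1 alone (without E14) turned the sign of the shared difference of Cdk4, and taking E14 alone that of Cdk2 and Cdk6, none of which was called. With 1 line left no test is possible. Scaling by trimmed means of M values shifted log2 ratios of RPM by -0.04 in E14 and -0.05 in JB1, and by less in genes near the pseudocount. The JB1 median around Ccnd2 changed sign within 2 Mb (-0.09) and with a filter of 5 RPM (-0.04), that around Ccnd3 within 2 Mb (0.02) and that around Rb1 with the filter (-0.03). Around Rb1 it was 0.34 within 2 Mb, and around Ccne1 0.35 with the filter. In JB1 2 list medians changed sign with the other scaling (CDK activation at -0.04 and upstream inducers at -0.02). An edgeR fit, planned only for deposited raw counts, was not run on the recovered reads. Depth limits Ccnd2 most, with 65 to 142 reads per library.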

Other observations

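The ratio of a higher to a lower member within a library combines the folds given above and is no separate result. Per kb of longest transcript, the ratio of Ccnd3 to Rb1 was 7.62 in the E14 knockout and 3.14 in E14 wild type, and 49.2 in the JB1 knockout and 8.58 in JB1 wild type. The ratio of Ccne1 to Cdkn1b was 2.14 in the E14 knockout and 1.44 in E14 wild type, and 6.80 in the JB1 knockout and 1.51 in JB1 wild type. Both pairs were chosen after their values were seen, and the values are descriptions of single libraries.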
